A study of Mus musculus with 7 samples.

Results

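Rab GTPases are the small GTP-binding proteins that give each membrane compartment of a cell its identity. Members were taken as all genes whose symbol in the array annotation is Rab followed by digits and at most 1 letter, which leaves out effectors such as the Rab11fip genes. The rule gave 59 Rab genes with 132 single-gene probe sets, of 18193 genes with 34945 such probe sets. The values come from 7 Affymetrix Mouse Genome 430 2.0 arrays of sorted mouse cerebellar cells, 4 Nestin-positive (replicates 1, 3, 4 and 5) and 3 Nestin-negative (replicates 1, 4 and 5). Both populations are given as granule neuron precursors from mice of the labelled genotype Math1-Cre/Ptc-loxp/Nestin-CFP. By that genotype the Nestin-negative granule precursors lack Ptch1 too, which was not checked here, and no Ptch1-intact group is compared. Markers of other cell types were also measured in these samples and are given below. Ptch1 is the receptor that holds the Hedgehog pathway off. Math1-Cre acts in the granule lineage, and Nestin-CFP is the reporter for which the cells were sorted. The sample labels give postnatal day 7 and a medulloblastoma tissue, whereas the series' design text gives postnatal day 4. Cells were neither cultured nor treated, and RNA came from 1000000 cells per sample. Separate animals for the replicates are not stated in the labels, so p-values measure the spread between these samples, which may be technical.

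A Rab protein cycles between a GTP-bound form on a membrane and a GDP-bound form in the cytosol. Exchange factors load GTP, GTPase-activating proteins speed its hydrolysis, GDI and escort proteins carry the prenylated protein between membranes, and effectors bind the active form to tether, move or fuse vesicles. In neurons Rab3 proteins sit on synaptic vesicles, Rab6 acts at the Golgi, Rab5 and Rab4 at early endosomes, Rab11 at recycling endosomes, Rab7 and Rab9 at late endosomes, and Rab23 is known in mouse as a negative regulator of Hedgehog signalling.

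Signal is MAS5 signal, a linear probe set brightness that the authors scaled to the same trimmed mean on every array. A probe set was treated as measured when its signal reached the array's own median, 64.4 to 94.5, in at least 3 of the 7 arrays without regard to group, and the brightest measured probe set stood for its gene. Of the 59 Rab genes, 46 were measured, with 97 probe sets, and 43 of them reached the median on all 7 arrays. Rab32, Rab38 and Rab5b fell short of it on some arrays, and 0 of the 46 reached it in 1 group alone. The 13 unmeasured members were Rab17, Rab19, Rab20, Rab25, Rab26, Rab27a, Rab27b, Rab37, Rab3b, Rab40b, Rab42, Rab44 and Rab7b. None of their probe sets reached the median on any array, and their highest signal was 63.9, for Rab40b. They include the secretory-granule Rabs Rab27a, Rab27b, Rab26 and Rab37 and the epithelial Rabs Rab17 and Rab25. Because brightness depends on the probe, levels are compared between groups within a probe set and not between genes. Groups were compared with limma over all 11089 measured genes, and a gene is called at an adjusted p under 0.05. Arrays that carry the same replicate number (1, 4 or 5) deviated together, so a second fit took the number as a block. In that fit Nestin-positive replicate 3 has no partner and adds nothing to the difference.

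The sorted marker separated the groups. Nes, the gene of Nestin, had a signal of 478, 829, 722 and 543 on the Nestin-positive arrays, against 179, 174 and 217 on the Nestin-negative arrays (log2 difference 1.73 ± 0.21 SE, limma adjusted p = 0.0282). All 11 listed granule precursor markers reached the array median on all arrays of both groups, with a median log2 difference of -0.075 and 0 called. With the block their median was -0.031, and limma called Barhl1 (0.425), Ccnd1 (0.344) and Atoh1 (0.351) higher and Neurod1 (-0.486) lower. Markers of other cells moved with the groups. Of 12 listed microglia and macrophage markers 9 were measured, and limma called 2 of the 9 lower without the block and 9 with it, with summed signals of 291 to 1094 in Nestin-positive cells, against 2077 to 7925 in Nestin-negative cells. None of the 9 reached the median on all Nestin-positive arrays, and 2 reached it on Nestin-negative arrays alone, so that the filter fixed their direction. The 7 measured pericyte and smooth muscle markers, of 9 listed, had summed signals of 557 to 1909 in Nestin-positive cells, against 1288 to 9163 in Nestin-negative cells. Their median log2 difference was -2.3 (-2.1 with the block), with 0 called without the block and 6 lower with it, and 1 of the 7 reached the median on all Nestin-positive arrays. Blocked medians were -1.7 for 5 meningeal fibroblast markers (5 called lower), -3.0 for 3 GABAergic interneuron markers (2 lower), -0.39 for 7 endothelial markers (0 called) and -0.17 for 5 oligodendrocyte lineage markers (1 lower, 2 higher). Gad1, 1 of the 2 GABAergic markers called lower, reached the median on Nestin-negative arrays alone, so that the filter fixed its direction. The blocked median of 8 neural progenitor markers was 0.61 (6 called higher). Nes, the gene of the sorted marker, is among the 8 and the 6 and is no independent marker. The 9 astrocyte and Bergmann glia markers moved both ways with the block, where Aqp4 (-1.69), Hopx (-1.42), Aldh1l1 (-1.28) and Fabp7 (-0.65) fell and Slc1a2 (0.52) and Gdf10 (0.70) rose. Of 12 measured genes of granule neuron differentiation, of 15 listed, 4 fell without the block and 9 with it, and Map2, Rbfox3 and Snap25 passed neither fit. Their summed signals were 37260 to 44020 in Nestin-positive cells, against 51880 to 57650 in Nestin-negative cells. The part of these shifts in the Rab values was not tested, and in bulk samples fewer cells of a type and less RNA per cell cannot be told apart.

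In the fit of all 7 arrays without covariates, limma called 0 of 46 Rab genes, where 0.748% of the 11089 genes tested were called in either direction. At an unadjusted p under 0.05 there were 6 of 46 (13.0%), of which 5 were lower and 1 higher, against 14.4% of all genes. With the block, Rab3a, Rab3d, Rab6b, Rab33a and Rab9b fell, 5 of 46 or 10.9% of the measured members, against 6.39% of all genes tested. With the block, Rab13 rose, 1 of 46 or 2.17%, against 3.58% of all genes. These shares rest on 5 genes and 1 gene, and their difference from all genes was not tested. Their order depends on the fit: with the block without pair 1, 4.35% of the members fell, against 4.79% of all genes, and 2.17% rose, against 1.68%.

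Without the block, 34 of 46 members (73.9%) had a log2 difference below 0, against 54.5% of all genes tested. Their median was -0.069, against -0.026 over all genes, and the medians with the block were -0.074 and -0.013. Leaving out 1 array at a time moved the members' median between -0.11 and -0.017, and the SD of the per-array Rab median was 0.10. Differences within 0.25 of 0 were held by 29 of 46 members (63.0%) and by 65.7% of all genes, so most Rab genes, like most genes on the array, had similar signals in both populations. All values were lower in the Nestin-positive group for 7 members (15.2%), against 9.11% of all genes, and all values were higher for 2 members (4.35%), against 5.87%. The 7 were Rab3a, Rab3d, Rab33a, Rab4b, Rab6b, Rab35 and Rab31, and the 2 were Rab34 and Rab13.

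**Figure D1:**
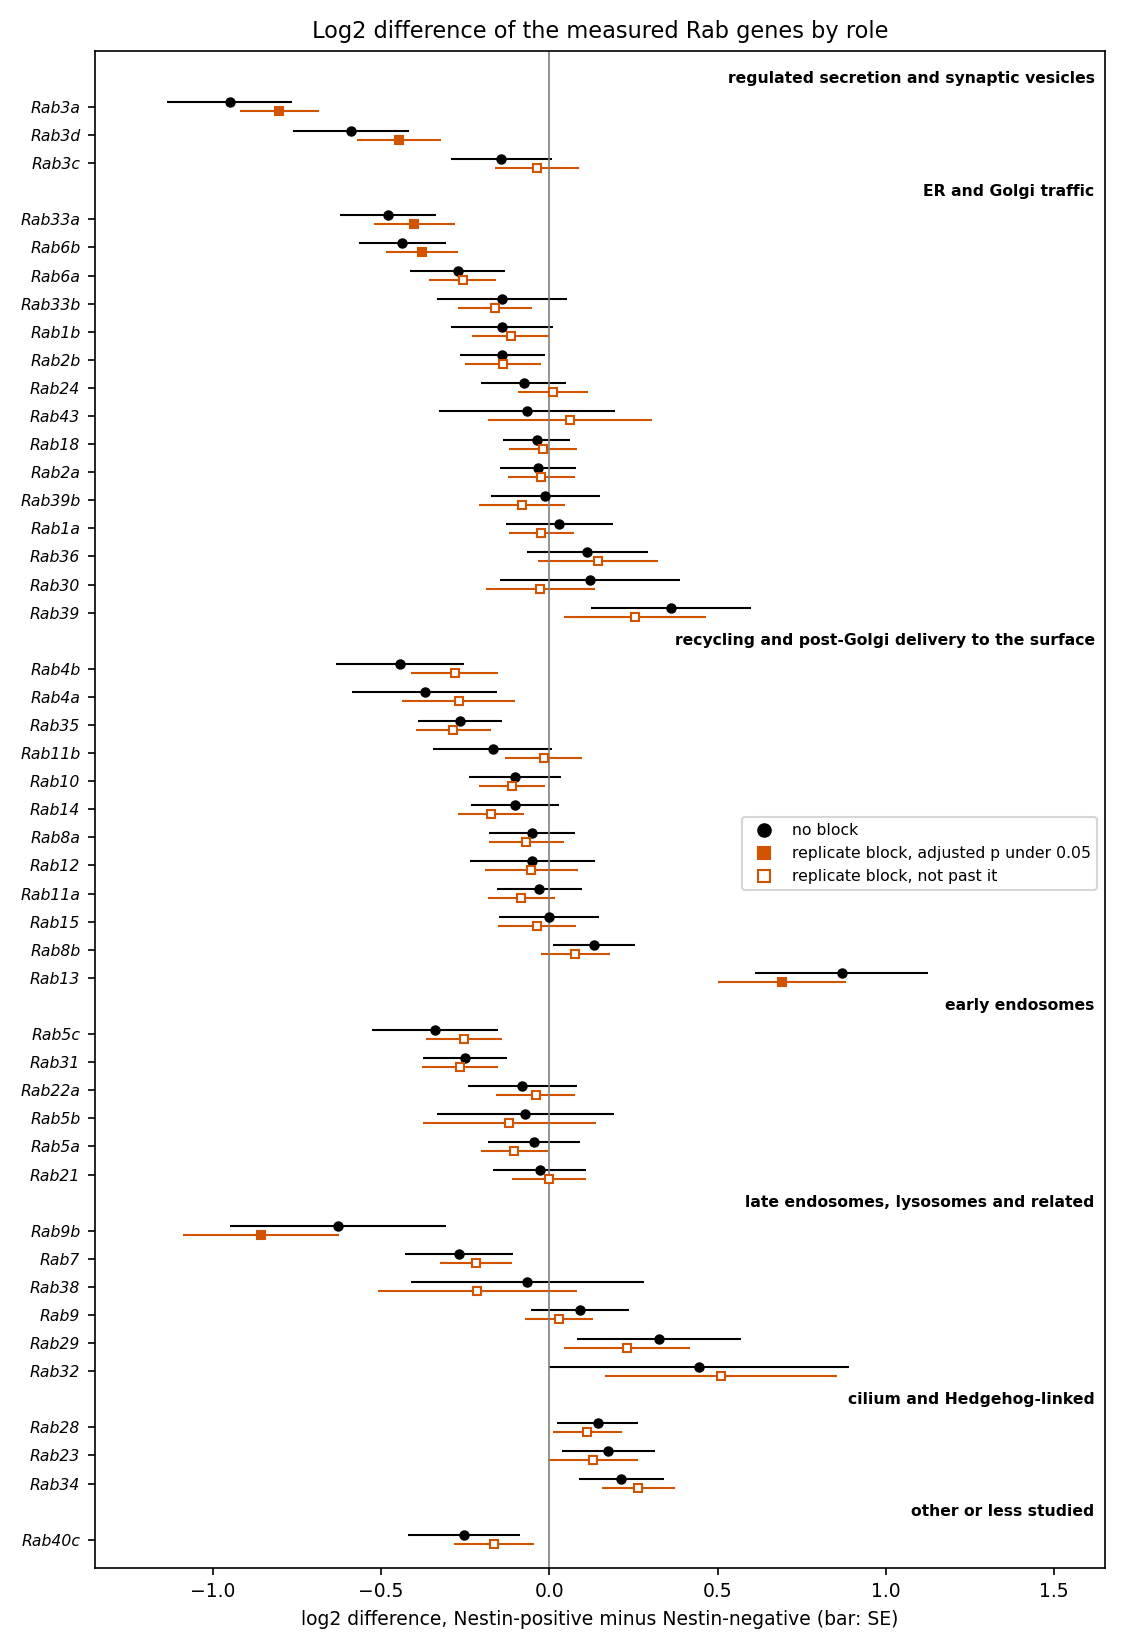
Log2 difference in MAS5 signal, Nestin-positive minus Nestin-negative, for the 46 measured Rab genes, grouped by role. Circles are the fit without a block and squares the fit with the replicate block, bars are SE, and filled squares mark the 6 genes with an adjusted p under 0.05 with the block: 5 to the left of 0 and Rab13 to the right.

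The promoters of 4 of the 6 genes called with the block are shown, from members that fell and from the 1 that rose. The windows of Rab33a and Rab9b, which also fell, are described below the sequences. They are RefSeq promoter windows of GRCm38.p6, 250 bases before to 50 after the listed start, 5′ to 3′ on the gene's strand. Rab3a lies at chr8:70754453-70754752 on the plus strand, Rab3d at chr9:21918134-21918433 on the minus strand, Rab6b at chr9:103111824-103112123 on the plus strand and Rab13 at chr3:90213465-90213764 on the plus strand. For Rab3a and Rab13 the first of 2 listed starts was used. Capitals mark CAGCTG and CAGATG (E-boxes), TGACGTCA (cAMP response element) and GGGCGG (GC box), searched on both strands.
Rab3a: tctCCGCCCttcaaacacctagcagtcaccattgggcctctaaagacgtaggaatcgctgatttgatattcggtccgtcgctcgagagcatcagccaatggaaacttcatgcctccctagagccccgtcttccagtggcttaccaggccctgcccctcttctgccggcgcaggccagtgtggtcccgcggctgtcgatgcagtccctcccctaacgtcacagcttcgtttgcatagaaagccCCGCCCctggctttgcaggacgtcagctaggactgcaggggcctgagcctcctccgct
Rab3d: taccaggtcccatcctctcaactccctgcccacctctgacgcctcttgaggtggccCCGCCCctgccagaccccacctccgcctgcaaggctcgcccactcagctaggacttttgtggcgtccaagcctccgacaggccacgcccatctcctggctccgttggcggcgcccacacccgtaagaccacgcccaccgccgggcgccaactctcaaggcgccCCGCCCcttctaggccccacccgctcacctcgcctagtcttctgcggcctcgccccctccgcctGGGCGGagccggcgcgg
Rab6b: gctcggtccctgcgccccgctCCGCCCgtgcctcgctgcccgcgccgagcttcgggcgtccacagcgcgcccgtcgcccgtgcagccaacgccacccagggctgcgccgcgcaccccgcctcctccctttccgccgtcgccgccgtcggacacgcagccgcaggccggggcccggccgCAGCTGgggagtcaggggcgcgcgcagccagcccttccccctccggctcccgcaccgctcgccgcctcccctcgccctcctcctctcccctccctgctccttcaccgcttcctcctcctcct
Rab13: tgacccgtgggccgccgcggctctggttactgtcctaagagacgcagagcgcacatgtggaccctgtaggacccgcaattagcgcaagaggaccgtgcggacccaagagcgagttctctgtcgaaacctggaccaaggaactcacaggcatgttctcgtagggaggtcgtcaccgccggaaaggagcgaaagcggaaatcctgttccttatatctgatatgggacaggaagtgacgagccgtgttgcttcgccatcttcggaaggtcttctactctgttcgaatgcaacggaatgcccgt

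The Rab3a window held 2 GC boxes, the Rab3d window 3, and the Rab6b window 1 GC box and 1 CAGCTG. The Rab13 window held none of these motifs, and neither did that of Rab33a, whereas that of Rab9b held 1 CAGCTG and 1 GC box. Promoters matched for 48 of the 59 Rab genes, and 34 of the 48 (70.8%) held a GC box, against 35.9% of 27025 promoters. CAGCTG was in 12 of 48 (25.0%), against 16.1% of all. CAGATG was in 5 (10.4%), against 17.2%, and TGACGTCA in 2 (4.17%), against 1.88%. The Gli motif GACCACCCA was in 1 (2.08%), against 0.244%, and TATAAA in 4 (8.33%), against 14.2%. The Rab windows had a median GC content of 61.7%, against 52.7% over all promoters, and these letter matches describe the windows and are not evidence of binding.

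Of the Rabs of regulated secretion and synaptic vesicles, 3 of 8 were measured, and the median log2 difference of the 3 was -0.59. With the block it was -0.45. Rab3a is the main Rab of synaptic vesicles and binds RIM and rabphilin. Its brightest probe set had signals of 1470, 986, 1673 and 1332 in Nestin-positive cells, against 3081, 2313 and 2437 in Nestin-negative cells. Every Nestin-positive array lay below every Nestin-negative one. The means were 1365 ± 289 (SD, n = 4) in Nestin-positive cells and 2610 ± 412 (SD, n = 3) in Nestin-negative cells, 1.93-fold lower in Nestin-positive cells. The log2 difference was -0.95 ± 0.19 SE (limma adjusted p = 0.0536), and with the block it was -0.80 ± 0.12 (limma adjusted p = 0.000117). The differences within the replicate pairs 1, 4 and 5 were -1.07, -0.47 and -0.87. A second Rab3a probe set had 325, 278, 675 and 505 in Nestin-positive cells, against 877, 953 and 886 in Nestin-negative cells. Its groups did not overlap either, and its log2 difference was -1.11. When every one of 20162 measured probe sets was tested on its own with the block, 3.34% were called lower, and among Rab probe sets the 2 of Rab3a were called (limma adjusted p = 0.00253 and 0.00668). Rab3a was the only Rab gene called in every leave-out of 1 replicate pair (limma adjusted p = 0.00011, 1.42e-09 and 2.47e-05 without pairs 1, 4 and 5).

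Rab3d, known for secretory granules of exocrine cells, had 539, 402, 620 and 643 in Nestin-positive cells, against 850, 821 and 777 in Nestin-negative cells. The groups did not overlap. Its log2 difference was -0.59 ± 0.17 SE (limma adjusted p = 0.151), and with the block -0.45 ± 0.13 (limma adjusted p = 0.0258). Its 3 measured probe sets gave -0.59 to -0.52. The next brightest of them also separated the groups, whereas the dimmest overlapped and was higher in pair 4 (0.49). Without pair 1 the blocked difference was -0.34 (limma adjusted p = 0.261). Rab3c, also found on synaptic vesicles, had 524, 415, 576 and 576 in Nestin-positive cells, against 547, 584 and 588 in Nestin-negative cells. These groups overlapped, and the log2 difference was -0.14 ± 0.15 SE (limma adjusted p = 0.724). Thus, within 1 subfamily, both probe sets of Rab3a and the brightest of Rab3d separated the groups, whereas the brightest of Rab3c did not. A test of the differences between these paralogs is given with the other pairs.

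**Figure D2:**
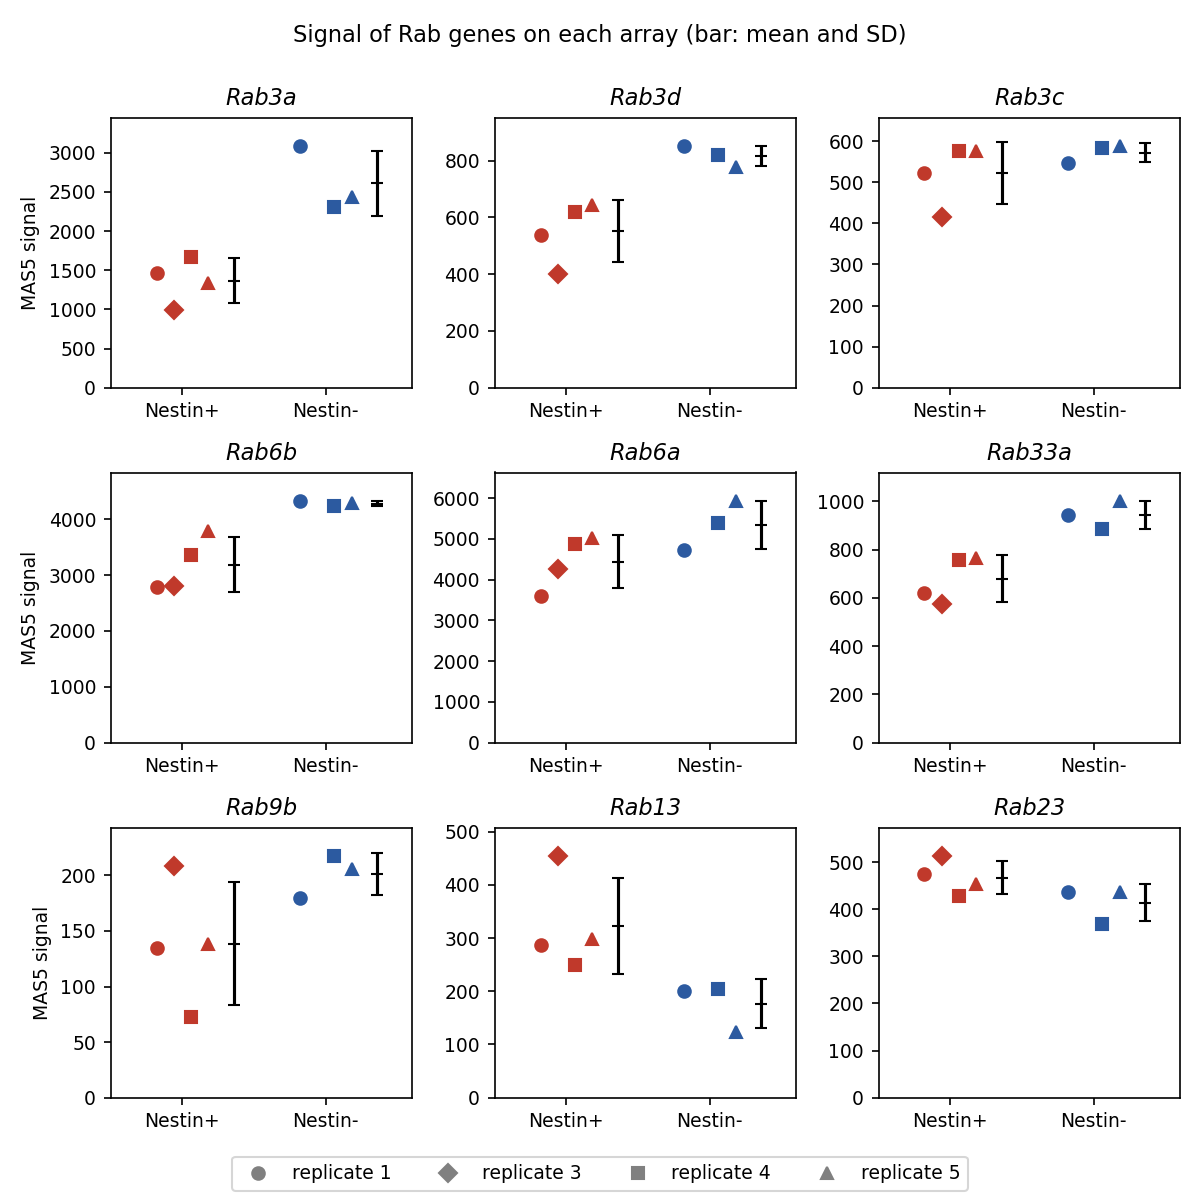
MAS5 signal (linear axes from 0) of 9 Rab genes on each array, Nestin-positive cells in red at the left and Nestin-negative cells in blue at the right. Marker shapes give the replicate number and bars the mean and SD (n = 4 and n = 3), with no overlap between groups for Rab3a, Rab3d, Rab6b, Rab33a and Rab13 and overlap for Rab3c, Rab6a, Rab9b and Rab23.

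The largest class was that of the endoplasmic reticulum and Golgi, with 15 of 16 members measured. Their median log2 difference was -0.066 (-0.027 with the block), with 11 below 0 and 4 above without the block. With the block 2 of the 15 fell (13.3%, against 6.39% of all genes). Rab33a, a Golgi-linked Rab known in rat neurons for carrying vesicles into growing axons, had 622, 574, 757 and 767 in Nestin-positive cells, against 942, 884 and 1000 in Nestin-negative cells. All Nestin-positive arrays were lower. The log2 difference was -0.48 ± 0.14 SE (limma adjusted p = 0.157), and with the block -0.40 ± 0.12 (limma adjusted p = 0.0378). The blocked difference was -0.30 without pair 1 (limma adjusted p = 0.333) and -0.41 without pair 5 (limma adjusted p = 0.115), so that the call was lost in both, the second time at an unchanged size.

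Rab6b is the Rab6 form enriched in neurons and acts in Golgi traffic. It had 2795, 2802, 3363 and 3798 in Nestin-positive cells, against 4319, 4235 and 4291 in Nestin-negative cells. The Nestin-negative arrays lay close together and above all Nestin-positive ones. The log2 difference was -0.44 ± 0.13 SE (limma adjusted p = 0.155), and with the block -0.38 ± 0.11 (limma adjusted p = 0.0267). Its 4 probe sets gave -0.44 to -0.10, and only the brightest separated the groups. Without pair 1 its blocked difference was -0.25 (limma adjusted p = 0.314). Rab6a, the broadly expressed form, had 3610, 4264, 4869 and 5026 in Nestin-positive cells, against 4727, 5388 and 5922 in Nestin-negative cells. Those groups overlapped, and the blocked difference of -0.26 had a limma adjusted p of 0.117. Of the other members, Rab39b, an X-linked neuronal Rab, had the smallest difference, -0.01 ± 0.16 SE. Its signals were 1090, 1327, 886 and 1369 in Nestin-positive cells, against 1117, 1230 and 1137 in Nestin-negative cells. Rab1a and Rab2a, which act between the endoplasmic reticulum and the Golgi, had differences of 0.03 and -0.03.

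Of the Rabs of recycling and of delivery from the Golgi to the surface, 12 of 14 were measured. Their median was -0.077 (-0.076 with the block), with 10 below 0 and 2 above without the block. Rab13 takes part in the delivery of junction proteins in epithelia and stood apart from the rest of the class. Its single probe set had 288, 454, 249 and 299 in Nestin-positive cells, against 200, 205 and 123 in Nestin-negative cells. Every Nestin-positive array was above every Nestin-negative one. The log2 difference was 0.87 ± 0.26 SE, 1.83-fold higher in Nestin-positive cells (limma adjusted p = 0.155), and with the block 0.69 ± 0.19 (limma adjusted p = 0.0234). The pairs gave 0.52, 0.28 and 1.27, and without pair 5 the blocked difference was 0.40 (limma adjusted p = 0.355).

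Rab4b, which returns cargo from early endosomes to the surface, had 450, 318, 565 and 492 in Nestin-positive cells, against 588, 616 and 621 in Nestin-negative cells. The groups did not overlap, but the log2 difference of -0.44 ± 0.19 SE did not pass the test (limma adjusted p = 0.327). Rab35, a Rab of fast recycling, had 749, 862, 893 and 822 in Nestin-positive cells, against 899, 1087 and 1016 in Nestin-negative cells (log2 difference -0.27 ± 0.13 SE, limma adjusted p = 0.373). Here too the groups were apart by a narrow margin. Rab15, an endosomal Rab of neurons, had 836, 1122, 1176 and 1069 in Nestin-positive cells, against 944, 1033 and 1164 in Nestin-negative cells, with a difference of 0.00 ± 0.15 SE. Rab11a, the main Rab of recycling endosomes, had a difference of -0.03.

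All 6 measured Rabs of early endosomes, of 7 in the class, had log2 differences below 0, from -0.34 to -0.03, and 0 passed either fit. Rab5c, a form of Rab5 that drives early endosome fusion, had 1388, 1411, 2282 and 1807 in Nestin-positive cells, against 1840, 2222 and 2373 in Nestin-negative cells. Replicates 1 and 3 of the Nestin-positive group were low and replicate 4 overlapped the Nestin-negative values. The difference was -0.34 ± 0.19 SE (limma adjusted p = 0.459), and without pair 4 the blocked difference was -0.40 (limma adjusted p = 0.0158). Rab31, which acts between the trans-Golgi network and endosomes, had 978, 1193, 1234 and 1237 in Nestin-positive cells, against 1360, 1311 and 1456 in Nestin-negative cells. The groups did not overlap (-0.25 ± 0.13 SE, limma adjusted p = 0.412). Rab21, an endosomal Rab of integrin traffic, had 914, 1000, 1201 and 1152 in Nestin-positive cells, against 969, 1145 and 1142 in Nestin-negative cells. Its difference was -0.03 ± 0.14 SE, and Rab5a had -0.05. A second, dimmer Rab21 probe set had a difference of -0.64 and was lower in all 3 replicate pairs, with groups that overlapped. Tested on its own with the block, that probe set was not called (-0.59, limma adjusted p = 0.143).

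The class of late endosomes, lysosomes and related organelles had 6 of 7 members measured. Without the block their median was 0.013, with 3 below 0 and 3 above, and with the block the median was -0.093. Rab9b is a close relative of Rab9, which returns receptors from late endosomes to the trans-Golgi network. Its single probe set had 134, 208, 73.0 and 138 in Nestin-positive cells, against 180, 217 and 206 in Nestin-negative cells. The groups overlapped, and Nestin-positive replicate 3, which has no partner, lay among the Nestin-negative values. The log2 difference was -0.63 ± 0.32 SE (limma adjusted p = 0.419), and with the block -0.86 ± 0.23 (limma adjusted p = 0.0218). With the number as a random block it was -0.75 and not called (limma adjusted p = 0.102). The pairs gave -0.42, -1.57 and -0.58. Without pair 4 the blocked difference was -0.50 (limma adjusted p = 0.215), and without Nestin-positive replicate 4 the difference in the fit with no block was -0.35.

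Rab32 and Rab38 share work in melanosomes and other lysosome-related organelles, and both were near the array medians. Rab32 had 119, 103, 166 and 95.2 in Nestin-positive cells, against 43.1, 83.3 and 182 in Nestin-negative cells. The Nestin-negative arrays spanned a wider range than the Nestin-positive ones, and the difference of 0.44 ± 0.45 SE had a limma adjusted p of 0.710. Without pair 5 its blocked difference was 1.23 (limma adjusted p = 0.0208), against 0.0326 without pair 1 and 0.265 without pair 4, neither called. When dim signals were floored at each array's median, the difference in the fit with no block shrank to 0.0656 (limma adjusted p = 0.951). Rab38 had 103, 116, 61.3 and 71.8 in Nestin-positive cells, against 118, 98.2 and 60.8 in Nestin-negative cells, a difference of -0.07 ± 0.35 SE. Rab7, the main Rab of late endosomes, had a difference of -0.27 that passed neither fit.

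The 3 Rabs placed in the class linked to the cilium or to Hedgehog signalling were all measured, and 0 of 3 passed either fit. Each Rab gene was placed in 1 class only. The brightest probe sets of the 3 had small positive differences, higher in each of the 3 replicate pairs, which held for 19% of all genes tested. Rab34, needed for cilium formation and Hedgehog signalling in mouse, had 1583, 1233, 1429 and 1263 in Nestin-positive cells, against 1231, 1188 and 1128 in Nestin-negative cells. The groups were apart by a narrow margin. The difference was 0.21 ± 0.13 SE (limma adjusted p = 0.494), and with the block 0.26 ± 0.11 (limma adjusted p = 0.142). A second Rab34 probe set had 1194, 1018, 1157 and 996 in Nestin-positive cells, against 964, 1013 and 916 in Nestin-negative cells. Its groups overlapped, with a difference of 0.175. Rab23 had 475, 512, 427 and 454 in Nestin-positive cells, against 436, 370 and 437 in Nestin-negative cells. The values overlapped, with a difference of 0.17 ± 0.14 SE (limma adjusted p = 0.627). A second Rab23 probe set had 364, 401, 372 and 373 in Nestin-positive cells, against 324, 323 and 317 in Nestin-negative cells. In that probe set the groups were separate, with a difference of 0.23. Rab28, a Rab of ciliated photoreceptors, had 2370, 2751, 2573 and 2660 in Nestin-positive cells, against 2027, 2442 and 2590 in Nestin-negative cells, a difference of 0.14 ± 0.12 SE (limma adjusted p = 0.652). A second Rab28 probe set had a difference of 0.25 and was lower in pair 4 (-0.06). Of the 4 less studied members, Rab40c, part of a ubiquitin ligase, was the 1 measured. It had 1083, 1016, 1591 and 1279 in Nestin-positive cells, against 1519, 1562 and 1306 in Nestin-negative cells, a difference of -0.25 ± 0.17 SE that passed neither fit.

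Close paralogs share much of their sequence, so whether 1 of a pair moved more than the other was compared as the log2 ratio of both signals within each array. Of 25 listed pairs, 18 had both members measured, and none passed an exact two-sided permutation test after Benjamini-Hochberg adjustment over the 18. With 4 arrays against 3 there are 35 splits and the smallest possible p is 0.0286, so 1 pair alone at that p cannot pass after the adjustment. The log2 ratio of Rab3a to Rab3c was 1.49, 1.25, 1.54 and 1.21 in Nestin-positive cells, against 2.49, 1.99 and 2.05 in Nestin-negative cells. The ratio was lower on every Nestin-positive array, by 0.81 (exact permutation p = 0.0286, adjusted p = 0.171). The ratio of Rab3c to Rab3d differed by 0.45 and that of Rab3a to Rab3d by -0.36, also without overlap and each at that smallest p. These 3 ratios share their genes, so any 2 of them fix the other, and they are not separate results. The largest difference was that of Rab10 to Rab13, -0.97 (exact permutation p = 0.0571, adjusted p = 0.206). Rab9 to Rab9b differed by 0.72 (exact permutation p = 0.0571, adjusted p = 0.206) and Rab32 to Rab38 by 0.51 (exact permutation p = 0.543). In the other 12 pairs the difference lay between -0.34 and 0.37. The test treats the arrays as unpaired. Within the replicate pairs, the ratio moved one way in all 3 pairs for 7 of the 18, the 5 whose groups did not overlap and 2 whose groups did, Rab33a to Rab33b (lower) and Rab22a to Rab31 (higher). A paired exact test over 3 pairs cannot give a p below 0.25. Among the 12 were Rab6a to Rab6b at 0.16 (exact permutation p = 0.2) and Rab33a to Rab33b at -0.34 (exact permutation p = 0.314).

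**Figure D3:**
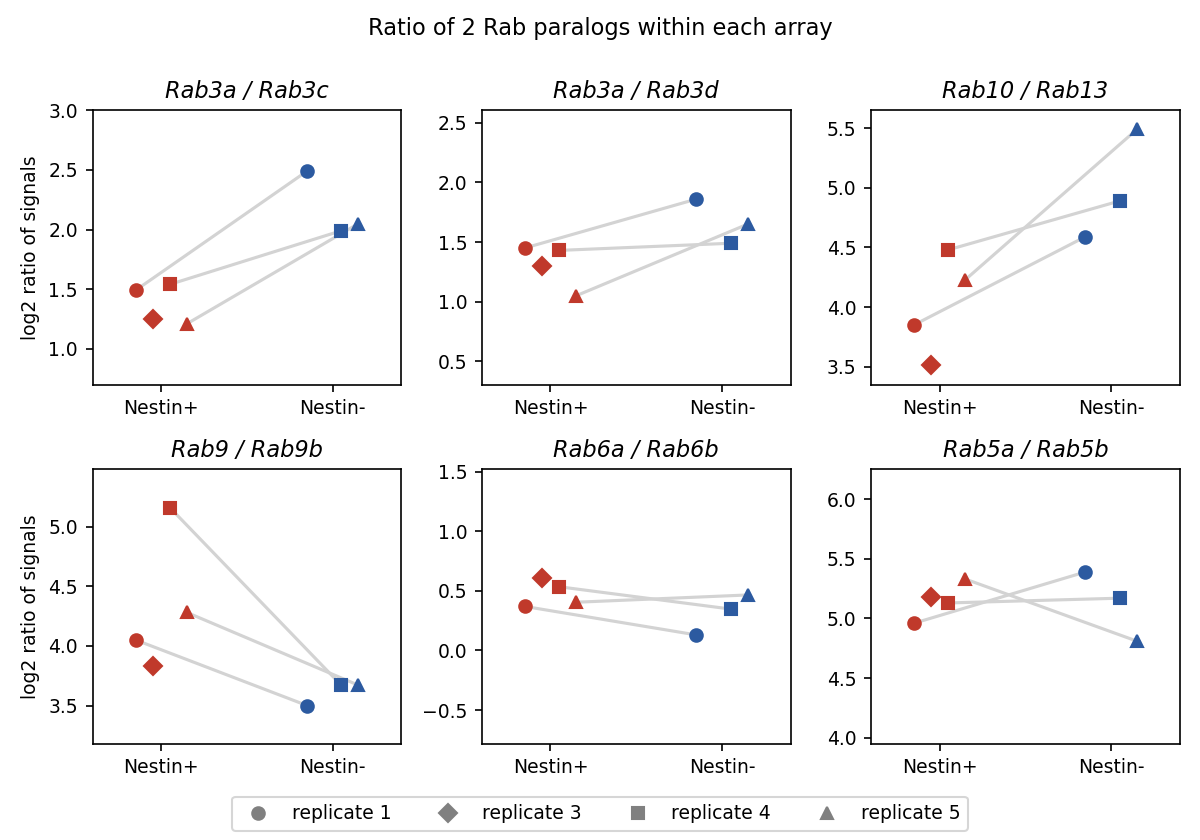
Log2 ratio of the MAS5 signals of 2 Rab paralogs on each array, Nestin-positive cells in red at the left and Nestin-negative cells in blue at the right, with grey lines joining equal replicate numbers. The ratios of Rab3a to Rab3c and to Rab3d and of Rab10 to Rab13 were lower on all Nestin-positive arrays, that of Rab9 to Rab9b was higher, and Rab6a to Rab6b and Rab5a to Rab5b overlapped.

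Regulators and effectors of Rab proteins were read from a list of 115 genes, of which 92 were measured. Their median log2 difference was -0.086, with 59 below 0 and 33 above. In the fit without a block 0 of 92 were called and 11 (12.0%) had an unadjusted p under 0.05, against 14.4% of all genes. With the block 5 fell (5.43%, against 6.39% of all genes) and 0 rose (against 3.58%), so the share that fell was near that over all genes. The groups did not overlap for 14 that were lower (15.2%, against 9.11%) and 1 that was higher (1.09%, against 5.87%). By kind, the median without the block was 0.07 for 6 escort, GDI and prenylation genes and 0.00 for 26 exchange factors. It was -0.21 for 28 GTPase-activating proteins and -0.12 for 32 effectors. With the block these medians were 0.04, 0.00, -0.09 and -0.10 in the same order. Of the 5 that fell, 4 were effectors and 1 was in the GTPase-activating list.

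Rph3al, an effector of Rab3 and Rab27 in hormone secretion, had 252, 143, 436 and 343 in Nestin-positive cells, against 773, 923 and 722 in Nestin-negative cells. The groups lay far apart, with a log2 difference of -1.56 ± 0.32 SE (limma adjusted p = 0.0665) and -1.26 ± 0.15 with the block (limma adjusted p = 7.94e-06). Rims1, the active zone scaffold that binds Rab3, had 164, 102, 117 and 126 in Nestin-positive cells, against 378, 230 and 203 in Nestin-negative cells. It was lower on every Nestin-positive array (-1.05 ± 0.27 SE, limma adjusted p = 0.104, and -0.95 ± 0.20 with the block, limma adjusted p = 0.00335). The related Rab3 effectors Rph3a and Rims2 had differences of -0.01 ± 0.28 SE and -0.06 ± 0.13 SE (limma adjusted p = 0.993 and 0.876). Rab11fip5, an effector of Rab11, had 377, 331, 421 and 466 in Nestin-positive cells, against 574, 596 and 613 in Nestin-negative cells (-0.50 ± 0.13 with the block, limma adjusted p = 0.0168). Rab11fip4, another Rab11 effector, had 524, 319, 654 and 700 in Nestin-positive cells, against 870, 836 and 873 in Nestin-negative cells (-0.47 ± 0.13 with the block, limma adjusted p = 0.0211). Both effectors were lower on all Nestin-positive arrays, whereas Rab11a itself had a difference of -0.03. Tbc1d9, which carries the domain of Rab GTPase-activating proteins, had 381, 282, 268 and 315 in Nestin-positive cells, against 571, 453 and 418 in Nestin-negative cells (-0.58 ± 0.14 with the block, limma adjusted p = 0.0112). Tbc1d22a, with the same domain, had a blocked difference of -0.45 ± 0.15 that did not pass the test (limma adjusted p = 0.0615).

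**Figure D4:**
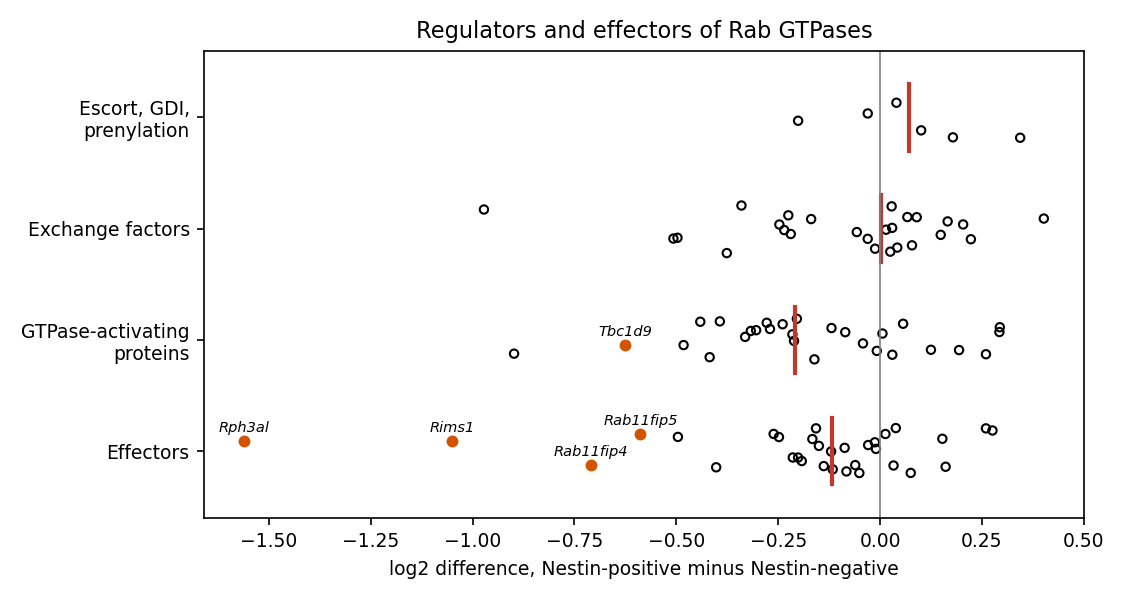
Log2 difference in MAS5 signal, Nestin-positive minus Nestin-negative, of the 92 measured Rab regulators and effectors, 1 point per gene in 4 classes, from the fit without a block. Red bars are class medians (0.07, 0.00, -0.21 and -0.12 from top to bottom) and filled points mark the 5 genes with an adjusted p under 0.05 with the replicate block.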

How the data were processed

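The deposited values are MAS5 signal, a linear probe set intensity made by the authors with MAS5, per the submitters' processing notes, and no version is given in the sources used here. On all 7 deposited arrays the mean without the lowest and highest 2% was 500. RNA was extracted with Trizol and 6 ug were labelled, per the labels' protocols. MAS5 subtracts mismatch signal, which makes ratios of dim values noisy, and the number of arrays limits the precision. Groups and replicate numbers were taken from the titles.

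Of 45101 probe sets, 64 controls were left out, 932 named several genes and 9160 none. Symbols were updated by Entrez ID through RefSeq for 34741 probe sets. Log2 was taken without a pseudocount. The filter left 23585 probe sets, 20162 with 1 gene, and 11089 genes. Differences were fitted by limma 3.58.1 under R 4.3.3, without covariates and with a trended moderation of variances. Tests were two-sided, with Benjamini-Hochberg adjustment over all genes tested and a threshold of 0.05.

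Deviations of the arrays from their group means correlated at 0.71, 0.39 and 0.47 between same-numbered arrays of both groups and at -0.60 to 0.19 between others. The numbers were therefore taken as pairs, from the data and not from the labels, and the blocked fit is given beside the results whose call it changes. The fit had 2 residual degrees of freedom per gene, 19.8 after moderation.

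The members and lists were chosen with earlier results of these data known. Named with values were the Rab genes called in either fit, Rab23, Rab3a and Rab6b, and in each role class the 2 largest differences and the smallest. Also named were listed regulators called in the fit without a block and up to 6 more by smallest blocked p. Rab6a, Rab35, Rab1a, Rab2a, Rab11a, Rab5a, Rab7, Rph3a and Rims2, and the astrocyte markers, were added after their values were seen. So were the named granule precursor markers and Gad1. Alternatives covered scaling, pseudocount, floor, filter, probe set choice, the trend, the block and leaving out arrays. The fits were tested on simulated data with independent noise and planted log2 changes of 2 in either direction. The simulation held no effect shared by a replicate number. It thus did not test the blocked fit on paired arrays, or differences as small as those of the Rab genes.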

Additional observations from a re-analysis of the deposited data

Results flagged for a closer look

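Rab31 had a signal of 978.5 on Nestin-positive replicate 1, whereas the other Nestin-positive arrays lay between 1193 and 1237. The gap to the nearest value was 0.845 of the group's range, above Dixon's critical value for 4 samples. It was the 1 gene marked this way of 46 Rab genes looked at, and chance marks about 1 in 20. Without that array the log2 difference of Rab31 was -0.17, against -0.25 with it.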

How the results depend on the processing

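The count of called Rab genes, 0 without the block, was 1 (Rab3a) with values floored at the array median, with a pseudocount of 16, with only probe sets at or above the median on all arrays, and with the block on single probe sets, an alternative chosen after seeing the data. It was 6 with the replicate block, 5 with a random block, and 3, 7 and 5 with the block without pairs 1, 4 and 5 (Rab5c and Rab7 joined without pair 4, Rab32 without pair 5). Leaving out 1 array gave 0 to 1 Rab genes, the 1 being Rab3a without Nestin-positive replicate 4. Regulators called were 0 without the block, 1 with the strict filter, 5 with the block, 4 with the random block, 3 with the block on single probe sets, 3, 7 and 8 without pairs 1, 4 and 5, and 0 to 1 without 1 array.

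Over all genes, 83 were called. The count was 22 after quantile normalization (9 higher and 13 lower, against 19 and 64), 0 after median centring, 52 without a filter, 43 with the mean of a gene's probe sets, 0 on single probe sets and 0 without the intensity trend. It was 1106 with the replicate block, 767 with the block on single probe sets, 854 with a random block, and 717, 1419 and 904 with the block without pairs 1, 4 and 5. Leaving out 1 array gave 0 to 97 calls, and it was at most 45 without any array other than Nestin-positive replicate 4.

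Among the named genes and the 5 largest paralog differences, 6 turned sign under some alternative. Rab39b was 0.0139 when its probe sets were averaged and 0.116 in the block without pair 4, Rab21 was 0.0408 in the block without pair 1, and Rab38 was 0.0189 in the block without pair 4. Leaving out 1 array moved Rab39b between -0.0956 and 0.114, Rab21 between -0.109 and 0.0424, Rab38 between -0.341 and 0.14, Rab32 between -0.0608 and 0.977, Rab15 between -0.073 and 0.105, and the ratio of Rab32 to Rab38 between -0.201 and 1.32. The cause was not tested. Rab3a stayed between -1.06 and -0.80 without 1 array.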

Other observations

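Of the 46 measured Rab genes, 28 had more than 1 measured probe set, and in 15 of these all probe sets had a difference of the same sign. Rab14, a Rab of endosome and Golgi traffic, had 2 dim probe sets that were high on replicate 1 of both groups. The first had 1606, 547, 159 and 222 on Nestin-positive replicates 1, 3, 4 and 5, against 1508, 235 and 284 on Nestin-negative replicates 1, 4 and 5. The second had 1507, 370, 316 and 274 on the Nestin-positive arrays, against 1047, 218 and 316 on the Nestin-negative arrays. The brightest Rab14 probe set did not share this, with 6430, 9153, 8102 and 8117 on the Nestin-positive arrays, against 7866, 9062 and 8504 on the Nestin-negative arrays. The pattern was not particular to Rab14. A dim Rab1a probe set had 394 on Nestin-positive replicate 1 and 326 on Nestin-negative replicate 1, and at most 160 on the other arrays. A dim Rab12 probe set had 321 and 274 on the same arrays, and at most 131 on the others.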
